A study of Homo sapiens with 8 samples.

Results

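The MHC class I antigen presentation genes described here were the class I heavy chains HLA-B, HLA-C and HLA-E, the light chain B2M, the peptide transporter and loading genes TAP1, TAP2 and TAPBP, and the immunoproteasome subunits PSMB8 and PSMB9. They were taken from the deposited expression table by gene symbol, and 9 of the 9 listed genes were found among its 13771 genes. The table holds log2 CPM, a gene's share of a library's reads, scaled to a fixed library total, on a log scale. A difference of 1 on that scale is a doubling and is written as a 2-fold change.

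RNA-seq had been done on 2 breast epithelial cell lines, each with 2 lentiviral vectors. MCF10A is a non-tumorigenic line and was kept in medium with horse serum, epidermal growth factor, hydrocortisone, insulin and cholera toxin. MCF10 DCIS.COM descends from MCF10A cells, models ductal carcinoma in situ and was kept with horse serum alone, so that line and medium cannot be told apart. Both lines were stably transduced with pCDH-HOTAIR, which carries the long non-coding RNA HOTAIR under the vector's promoter, or with the empty pCDH vector, and both were selected with puromycin. Each of the 4 groups had 2 libraries. The sources used here name neither clones nor separate cultures, so the p-values measure only the spread between these libraries, which may be technical.

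Class I molecules display peptides from inside the cell to cytotoxic T cells, and HLA-E displays peptides to receptors of natural killer cells. The proteasome cuts proteins into peptides, and PSMB8 and PSMB9 take the places of the standard catalytic subunits in the immunoproteasome. TAP1 and TAP2 form the pump that carries the peptides into the endoplasmic reticulum, tapasin (TAPBP) holds the empty class I molecule to that pump, and B2M is the light chain without which heavy chains do not reach the cell surface. Interferon-gamma, through IRF1 and NLRC5 among others, is known to raise these genes together.

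The sequences upstream of the start sites are shown first because these genes are known for shared control elements, and because HLA-B and HLA-C, whose levels differed between the lines in opposite directions, are near copies of each other there. RefSeq promoter windows (GRCh38.p14) were matched by symbol for 8 of the 9 genes, with 10 windows in all, since TAP1 and PSMB8 each had 2 start sites. HLA-E had none. Each line gives the 250 bases before the start site, 5′ to 3′ on the gene's strand, and capitals mark matches to the motifs spelled out after the sequences.
HLA-B (chr6:31357180-31357429, minus strand): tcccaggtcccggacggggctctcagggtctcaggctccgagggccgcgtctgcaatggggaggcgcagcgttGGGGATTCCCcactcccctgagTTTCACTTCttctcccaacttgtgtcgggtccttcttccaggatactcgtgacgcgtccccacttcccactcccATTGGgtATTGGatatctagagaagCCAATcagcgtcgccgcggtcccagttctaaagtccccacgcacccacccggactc
HLA-C (chr6:31272093-31272342, minus strand): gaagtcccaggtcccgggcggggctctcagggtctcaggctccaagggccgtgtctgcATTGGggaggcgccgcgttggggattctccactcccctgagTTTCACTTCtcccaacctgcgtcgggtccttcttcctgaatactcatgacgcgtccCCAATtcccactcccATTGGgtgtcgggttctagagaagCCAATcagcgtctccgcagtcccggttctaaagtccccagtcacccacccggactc
B2M (chr15:44711267-44711516, plus strand): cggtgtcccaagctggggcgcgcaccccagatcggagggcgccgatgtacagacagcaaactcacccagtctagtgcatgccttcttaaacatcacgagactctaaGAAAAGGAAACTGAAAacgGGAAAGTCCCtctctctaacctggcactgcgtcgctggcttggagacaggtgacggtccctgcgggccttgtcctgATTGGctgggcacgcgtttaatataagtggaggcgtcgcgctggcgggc
TAPBP (chr6:33314079-33314328, minus strand): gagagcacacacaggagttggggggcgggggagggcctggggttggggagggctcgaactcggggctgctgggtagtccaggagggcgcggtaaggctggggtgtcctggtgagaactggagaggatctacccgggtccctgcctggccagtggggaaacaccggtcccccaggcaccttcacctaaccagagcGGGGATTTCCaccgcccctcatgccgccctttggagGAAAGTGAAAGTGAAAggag
TAP1, first start site (chr6:32853705-32853954, minus strand): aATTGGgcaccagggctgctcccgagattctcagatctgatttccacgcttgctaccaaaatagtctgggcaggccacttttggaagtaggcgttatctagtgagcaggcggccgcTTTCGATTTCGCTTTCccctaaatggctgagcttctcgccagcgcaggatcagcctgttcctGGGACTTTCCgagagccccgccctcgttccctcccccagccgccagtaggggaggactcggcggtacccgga
PSMB9 (chr6:32853942-32854191, plus strand): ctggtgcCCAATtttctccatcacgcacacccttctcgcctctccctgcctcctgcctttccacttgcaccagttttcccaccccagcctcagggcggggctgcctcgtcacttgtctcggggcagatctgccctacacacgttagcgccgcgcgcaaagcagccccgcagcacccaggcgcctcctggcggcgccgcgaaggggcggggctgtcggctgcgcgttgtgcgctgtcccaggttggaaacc

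The following 5 motifs were searched on both strands. GAANNGAAA is a spaced pair of GAA units as in the interferon element of class I genes. The core of the interferon-stimulated response element (ISRE) is GAAA, any 2 bases, then GAAA, and was added after the windows had been seen. TTCNNNGAA is the interferon-gamma activated site (GAS), and CCAAT is the box bound by NF-Y. The NF-kappaB site (kappaB) was searched as GGG, any 2 bases, TT, any base, then CC. GAANNGAAA matched upstream of HLA-B, HLA-C and TAP2, and 6.56% of the 35116 RefSeq windows held it in the same 250 bases. The ISRE core matched upstream of B2M, TAP1, TAP2 and TAPBP, against 3.02% of all windows, and in TAP2 it overlapped the GAANNGAAA match. The kappaB form matched in HLA-B, B2M, TAP1 and TAPBP (5.07% of all windows). The GAS form matched at the second start sites of PSMB8 and TAP1 (6.57%). CCAAT matched in HLA-B, HLA-C, B2M, TAP1 and PSMB9 (32.0%). A match is only a match of letters, and no binding was measured.

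HLA-B and HLA-C were identical at 226 of 254 aligned columns of these stretches (89.0%). Both held the match to GAANNGAAA, at -155 to -147 in HLA-B and at -151 to -143 in HLA-C, counted from the start site. The kappaB form at -177 in HLA-B had no counterpart match in HLA-C, where the aligned letters differed by the substitution C9T, counted from 1 at the 5′ end of the HLA-B match GGGGATTCCC. TAP1 and PSMB9 are transcribed away from each other from start sites 488 bases apart, and the printed windows overlap by 13 bases.

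**Figure D1:**
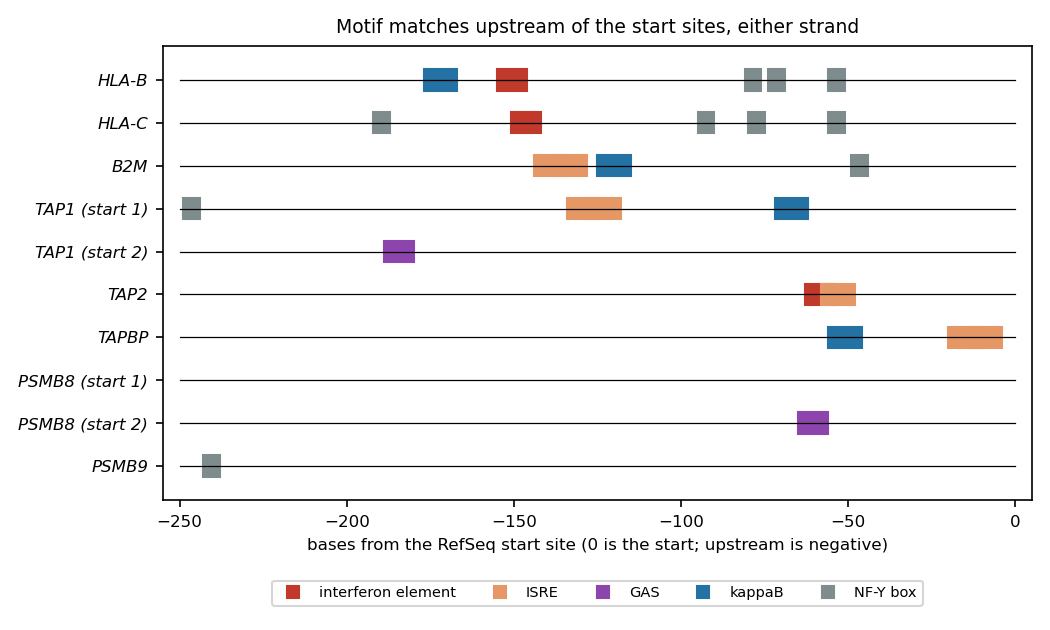
Motif matches in the 250 bases upstream of 10 RefSeq start sites of 8 class I genes, with the distance from the start site in bases on the x axis and one line per start site. The interferon element is GAANNGAAA and the NF-Y box is CCAAT. HLA-B and HLA-C share matches to both but not the kappaB form, and overlapping matches appear as one longer box.

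All 9 genes lie in the major histocompatibility complex on chromosome 6 except B2M on chromosome 15. In the GENCODE 44 annotation on GRCh37, the build of the authors' alignment, HLA-E spans 30457286 to 30461971 (plus strand), HLA-C 31236526 to 31239907 (minus) and HLA-B 31321649 to 31334844 (minus). TAP2 spans 32789610 to 32806516 (minus), PSMB8 32808494 to 32812456 (minus), TAP1 32812986 to 32821593 (minus), PSMB9 32811913 to 32827628 (plus) and TAPBP 33267471 to 33282061 (minus). B2M spans 45003556 to 45011049 on the plus strand of chromosome 15. The PSMB9 span overlaps both TAP1 and PSMB8 on the opposite strand, and PSMB8-AS1 overlaps all 3. HLA-B overlaps the pseudogene DHFRP2 on the same strand and unnamed gene models on the opposite strand. TAPBP overlaps an unnamed long non-coding RNA on the opposite strand. The genes that overlap HLA-B and TAPBP were not in the table. The use of strand in counting is not given in the sources used here, so reads from these overlaps cannot be assigned with certainty. Of the 76-base stretches of the canonical transcripts, 35.0% of those of TAP2 also occur in an unnamed protein-coding gene model on the same strand. The share was 2.18% for HLA-E and 1.91% for HLA-C (with other class I genes, HLA-H among them), 1.57% for TAPBP, 0.192% for TAP1, and 0 for the other 4 genes. HLA genes vary strongly between people and the alignment used reference alleles, so levels of different HLA genes carry an unknown mapping error, which the 2 lines share only as far as their alleles are the same.

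Depth ran from 19306864 to 34884841 recovered reads over the listed genes per library. HOTAIR had a log2 CPM of 0.60 and 0.66 in the empty vector libraries of MCF10A and 7.90 and 7.92 in its HOTAIR libraries, and 2.01 and 2.40 against 7.66 and 7.57 in DCIS.COM. The reads of the DCIS.COM empty vector libraries differed from each other with a chi-square per degree of freedom of 70.3, against 4.03 to 9.64 within the other groups. Empty vector 1 had the lowest normalization factor, 0.932 against 0.985 to 1.04 in the other libraries, and the lowest mean log2 CPM, 3.99 against 4.03 to 4.07. Results that moved most with either library are given with and without it. The 12 epithelial markers checked were in the table (summed CPM 16563 to 18729 in MCF10A and 7859 to 9813 in DCIS.COM). With either vector, 6 of the 12 had a higher group mean in DCIS.COM and 6 a lower one, so the sum hides their directions. Of 12 leukocyte markers, 8 were not listed, PTPRC, CD3D and CD3E among them, and the other 4 (CD14, CD68, CD4 and CD8A) summed to 43.5 to 48.7 CPM in MCF10A and 6.27 to 7.34 in DCIS.COM. The 2 of 8 fibroblast markers in the table (COL1A1 and COL1A2) summed to 8.47 to 10.2 CPM in MCF10A with the empty vector, 17.1 to 18.1 with HOTAIR and 1.04 to 1.66 in DCIS.COM. The 2 of 6 endothelial markers in the table (PECAM1 and ENG) summed to 13.8 to 16.2 CPM in MCF10A and 21.2 to 26.6 in DCIS.COM. The summed leukocyte and fibroblast markers were thus lower in DCIS.COM, as were most class I genes, while the endothelial sum and, of the leukocyte markers, CD8A (log2 difference 2.60 with the empty vector and 2.68 with HOTAIR) were higher. The part of these markers in the differences was not tested. CD8A passed the minimum CPM for a gene to be listed only through DCIS.COM, so it could only be higher there. CD4 and COL1A2 passed it only through MCF10A, so they could only be lower in DCIS.COM. The directions of CD8A, CD4 and COL1A2 therefore add nothing to the comparison with the class I genes. Each library came from a culture of a single cell line, so these markers need not stand for other cell types. In bulk RNA, fewer cells with a transcript and less of it per cell cannot be told apart.

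Among the heavy chains, HLA-C and HLA-E were about 2-fold lower in DCIS.COM than in MCF10A, whereas HLA-B was higher. HLA-B, a classical heavy chain, had a log2 CPM of 6.03 in both empty vector libraries of MCF10A and of 5.94 and 5.82 in its HOTAIR libraries. In DCIS.COM it had 6.49 and 6.48 with the empty vector and 6.81 and 6.80 with HOTAIR. The 4 DCIS.COM libraries were thus all above the 4 MCF10A libraries, and the HOTAIR libraries were the lowest in one line and the highest in the other.

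HLA-C, the classical heavy chain that also serves as a ligand of killer immunoglobulin-like receptors, had 8.13, 8.11, 8.11 and 8.05 in MCF10A (empty vector 1 and 2, then HOTAIR 1 and 2). It had 7.08 and 7.14 in DCIS.COM with the empty vector and 7.34 and 7.33 with HOTAIR. HLA-E, the non-classical heavy chain, had 7.27, 7.31, 7.23 and 7.22 in MCF10A, then 6.24 and 6.12 with the empty vector and 6.44 and 6.40 with HOTAIR in DCIS.COM. Every MCF10A library was above every DCIS.COM library for both genes, and in DCIS.COM both HOTAIR libraries were above both empty vector libraries.

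B2M, the light chain shared by all class I molecules, had the highest level per length of the 9 genes in each group. It had 9.78 and 9.75 with the empty vector and 9.70 and 9.72 with HOTAIR in MCF10A. In DCIS.COM it had 8.52 and 8.96 with the empty vector and 9.19 in both HOTAIR libraries. The spread within the DCIS.COM empty vector group was the widest of any B2M group, and its low library was empty vector 1.

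Of the loading genes, TAP1 and TAPBP were lower in DCIS.COM and TAP2 differed little. TAP1 had 5.79 and 5.74 with the empty vector and 5.44 and 5.32 with HOTAIR in MCF10A, and 4.79, 4.44, 4.49 and 4.57 in DCIS.COM. TAP2, its partner in the pump, had 6.15 and 6.08 against 5.95 and 5.96 in MCF10A, and 5.78 and 5.87 against 5.74 and 5.74 in DCIS.COM. TAPBP had 6.78, 6.85, 6.89 and 6.77 in MCF10A and 6.02, 5.94, 5.91 and 5.91 in DCIS.COM. TAP1 and TAP2 were below their empty vector levels in both HOTAIR libraries of MCF10A, while the TAPBP groups of MCF10A overlapped.

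The immunoproteasome genes differed by less than 1.5-fold between the lines. PSMB8, the inducible chymotrypsin-like subunit, had 5.52 and 5.48 with the empty vector and 5.32 and 5.35 with HOTAIR in MCF10A, and 5.30 and 5.18 against 5.39 and 5.40 in DCIS.COM. PSMB9, the inducible subunit that replaces PSMB6, had 2.14, 2.25, 1.90 and 2.21 in MCF10A and 1.89, 2.04, 2.29 and 2.29 in DCIS.COM. PSMB9 rested on 71 to 171 reads per library, whereas every other member had at least 579, so counting error weighs most on PSMB9.

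**Figure D2:**
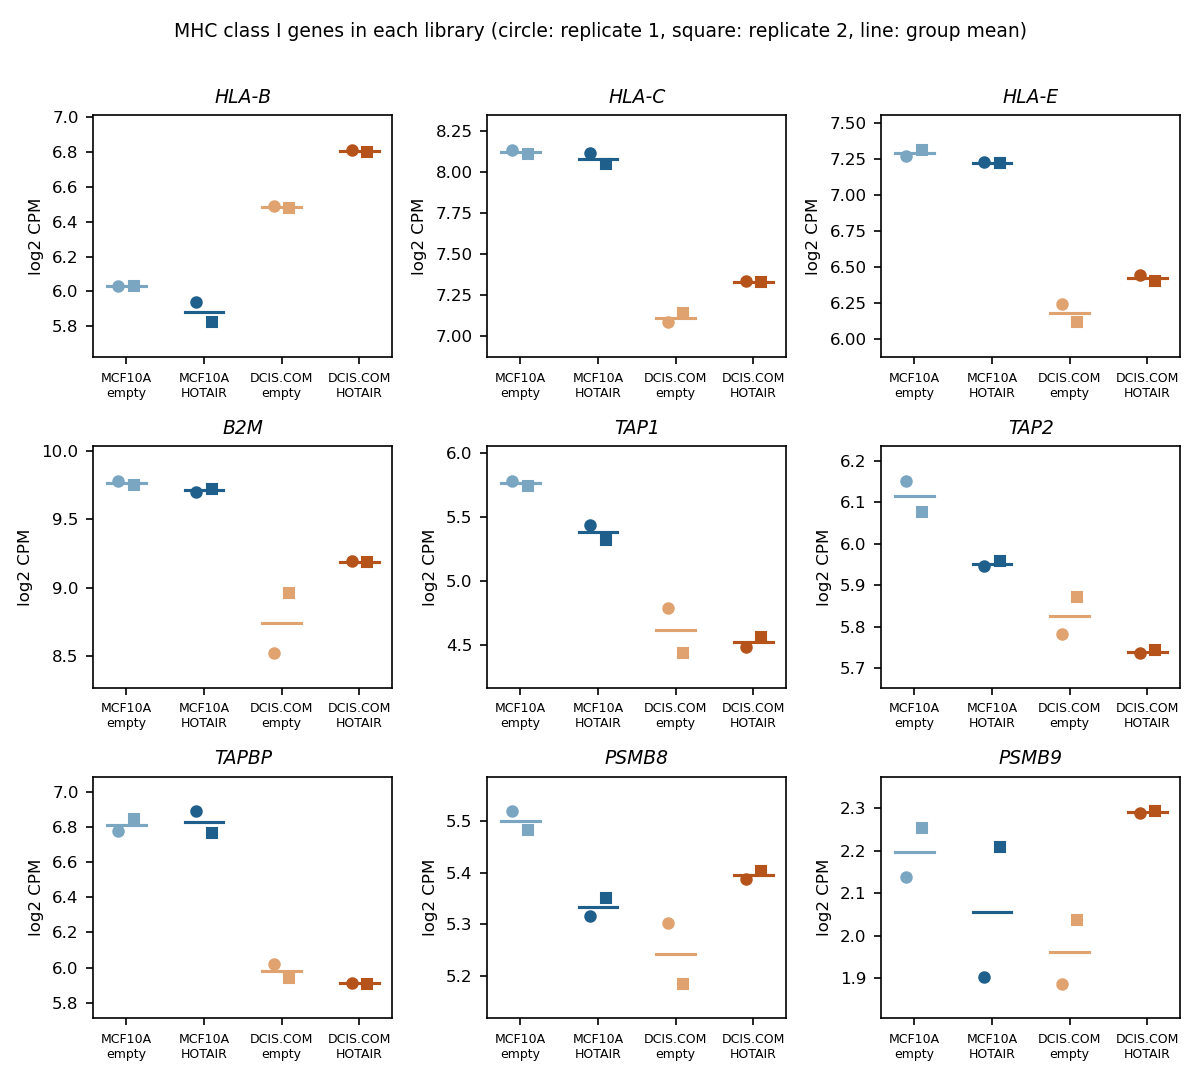
Log2 CPM of the 9 class I genes in each of the 8 libraries, one panel per gene with its own y axis that does not start at 0; circles are replicate 1, squares replicate 2 and lines the group means. HLA-C, HLA-E, TAP1 and TAPBP sit lower in all DCIS.COM libraries, HLA-B sits higher, and B2M differs between the 2 empty vector libraries of DCIS.COM (8.52 and 8.96).

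To compare levels between genes, the log2 of the canonical transcript's length in kilobases was subtracted from the log2 CPM (log2 CPM per kilobase, group means). In MCF10A with the empty vector the order was B2M (9.85), HLA-C (7.50), HLA-E (5.94), HLA-B (5.41), PSMB8 (5.33), TAPBP (5.03), TAP1 (4.34), TAP2 (3.62) and PSMB9 (2.17). In DCIS.COM with the empty vector it was B2M (8.83), HLA-C (6.49), HLA-B (5.87), PSMB8 (5.07), HLA-E (4.83), TAPBP (4.19), TAP2 (3.33), TAP1 (3.19) and PSMB9 (1.94). HLA-B thus ranked below HLA-E in the first line and above it in the second, and TAP1 and TAP2 changed places as well. Neighbours in the order did not overlap between their libraries in these 2 groups, except TAP2 and TAP1 in DCIS.COM, which were 0.14 apart while the TAP1 libraries themselves spread over 0.36. HLA-B and PSMB8 were only 0.08 apart in MCF10A. With HOTAIR the order in MCF10A was the same, and in DCIS.COM HLA-B (6.19) and PSMB8 (5.23) were again above HLA-E (5.07). HLA-B and PSMB8 in MCF10A with HOTAIR were 0.10 apart, less than the spread of 0.11 between the HLA-B libraries, and PSMB8 and TAPBP were 0.12 apart, as were the TAPBP libraries.

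The comparison of DCIS.COM with MCF10A carrying the empty vector asks how the class I genes differ between the lines themselves. With limma, 5 of the 9 genes were called (adjusted p under 0.05 and at least 1.5-fold), all lower in DCIS.COM, where 46.3% of all genes were called, 22.5% higher and 23.8% lower. TAP1 was 2.22-fold lower (log2 difference -1.15 ± 0.117, SE), HLA-E 2.16-fold lower (-1.11 ± 0.0655), B2M 2.04-fold lower (-1.03 ± 0.124), HLA-C 2.01-fold lower (-1.01 ± 0.0582) and TAPBP 1.78-fold lower (-0.83 ± 0.0696). The largest of their limma adjusted p-values was 0.00014, for B2M. HLA-B was 1.37-fold higher in DCIS.COM, which passed the p threshold (limma adjusted p = 0.00034) but not the fold.

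TAP2 was 1.22-fold and PSMB8 1.19-fold lower, with limma adjusted p-values of 0.00483 and 0.0117, both under the fold threshold. PSMB8 lost the adjusted threshold after quantile normalization (0.0593), in a separate fit of the 4 libraries (0.0738) and without MCF10A empty vector 1 (0.0691, limma adjusted p). PSMB9 did not pass (log2 difference -0.23, 95% interval -0.58 to 0.11). At any fold, 8 of the 9 genes passed the adjusted threshold, as did 68.2% of all genes. The median log2 difference of the 9 was -0.83. The sizes for B2M and TAP1 moved with the DCIS.COM control. B2M was at -1.25 against empty vector 1 alone and at -0.81 against empty vector 2 alone, and TAP1 at -0.97 and -1.33. Against DCIS.COM empty vector 2 alone or 1 alone the same count of 5 was called.

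With HOTAIR in both lines, 5 of the 9 genes were called in a background of 43.7%. HLA-B was called higher in DCIS.COM, 1.90-fold (0.93 ± 0.0637, limma adjusted p = 4.97e-06), and 22% of all genes were called higher. The 4 called lower were TAPBP (1.89-fold), TAP1 (1.81-fold), HLA-E (1.74-fold) and HLA-C (1.68-fold), against 21.7% of all genes. B2M was 1.43-fold lower (-0.52 ± 0.124, limma adjusted p = 0.00648) and so under the fold threshold. TAP2 was 1.16-fold lower (limma adjusted p = 0.021), but its adjusted p was 0.0796 to 0.107 with any of the 4 HOTAIR libraries left out and 0.0839 after quantile normalization. PSMB8 (0.06, 95% interval -0.10 to 0.22) and PSMB9 (0.23, -0.11 to 0.57) did not pass. The median log2 difference was -0.52. These 2 comparisons of the lines use separate libraries, but each shares its libraries with the comparisons of the vectors.

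**Figure D3:**
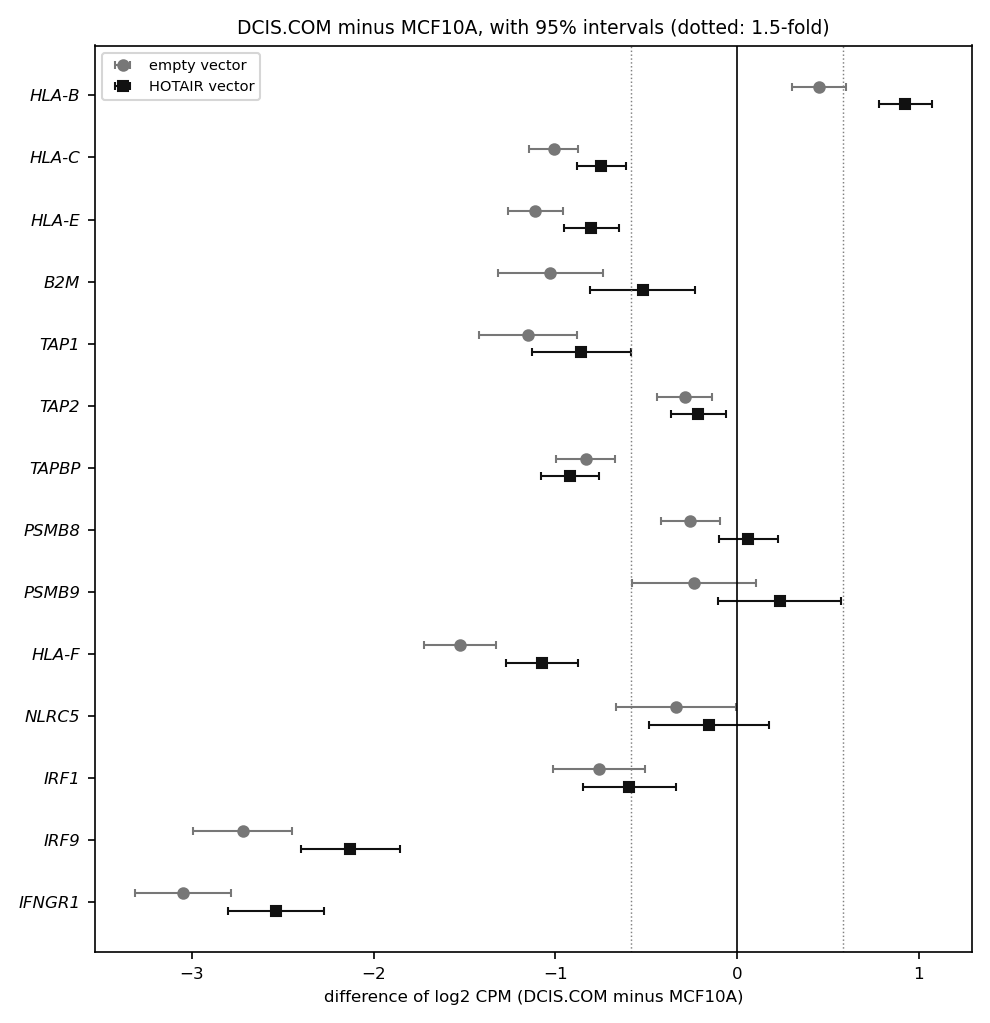
Log2 difference between DCIS.COM and MCF10A with its 95% interval from limma, with the empty vector (circles) and with HOTAIR (squares), for the 9 class I genes and 5 related genes; dotted lines mark 1.5-fold. HLA-B lies to the right of 0 with both vectors, while HLA-C, HLA-E, B2M, TAP1 and TAPBP lie to the left, and IRF9 and IFNGR1 lie furthest left.

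The first comparison of the vectors asks whether HOTAIR overexpression changed class I genes in MCF10A. None of the 9 was called, against 0.0218% of all genes in either direction, and 1 of the 9 fitted differences (TAPBP) was above 0, as were 47.7% over all genes. TAP1 had the largest, 1.30-fold lower with HOTAIR (log2 difference -0.38 ± 0.117, 95% interval -0.65 to -0.11, limma adjusted p = 0.476). Without DCIS.COM empty vector 1 or 2, which enter the shared estimate of spread, its limma adjusted p was 0.0261 or 0.0255 at the same fold, under 1.5, and 51 genes were called in either case. HLA-B (-0.15), TAP2 (-0.16) and PSMB8 (-0.17) had limma adjusted p-values of 0.638 to 0.657. These 4 genes had an unadjusted p under 0.05 with a lower level, as did 2.88% of all genes. For HLA-C (-0.04, 95% interval -0.17 to 0.09), HLA-E (-0.07, -0.22 to 0.09), B2M (-0.06, -0.35 to 0.23), TAPBP (0.02, -0.15 to 0.18) and PSMB9 (-0.14, -0.48 to 0.20) the intervals held 0. Both HOTAIR libraries were below both empty vector libraries for 6 genes (HLA-B, HLA-E, B2M, TAP1, TAP2 and PSMB8), which 24.8% of all genes were. The median log2 difference was -0.14 over the 9 genes and -0.01 over all genes.

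The same comparison in DCIS.COM again called none of the 9 genes, in a background of 0.0871%. The heavy chains and B2M had higher levels in HOTAIR libraries, with log2 differences of B2M 0.45 ± 0.124 (1.37-fold, limma adjusted p = 0.221), HLA-B 0.32 ± 0.0637 (1.25-fold, 0.138), HLA-E 0.24 ± 0.0655 (1.18-fold, 0.213) and HLA-C 0.22 ± 0.0582 (1.17-fold, 0.203). These 4 had an unadjusted p under 0.05 with a higher level, as did 9.08% of all genes. PSMB9 (0.33, 95% interval -0.01 to 0.67) and PSMB8 (0.15, -0.01 to 0.31) lay above 0 with intervals that held it. TAP1 (-0.09, -0.36 to 0.18), TAP2 (-0.09, -0.24 to 0.07) and TAPBP (-0.07, -0.23 to 0.09) lay slightly below. Both HOTAIR libraries were above both empty vector libraries for 6 genes (24.7% of all genes) and below for TAP2 and TAPBP (24.5%). The median log2 difference was 0.22 over the 9 genes and 0.01 over all genes.

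Part of this rested on DCIS.COM empty vector 1. Without empty vector 2, so that empty vector 1 was the lone control, B2M was 0.67 higher with HOTAIR and was called (limma adjusted p = 1.56e-05), but 1403 genes were then called. Without empty vector 1 the B2M difference was 0.23, none of the 9 genes was called, 60 genes in all were called, and TAP1 turned to 0.09 above its control. At any fold, the adjusted p was under 0.05 for more members with 1 control. Without empty vector 1 it was 0.0353 for HLA-B, 0.0227 for HLA-E and 0.0372 for B2M (limma adjusted p). Without empty vector 2 it was 0.00286 for HLA-B, 0.00245 for HLA-C, 0.0132 for HLA-E and 0.018 for TAP1, which was 0.27 below its control. The HLA-B difference was 0.31 against empty vector 1 alone and 0.33 against empty vector 2 alone.

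**Figure D4:**
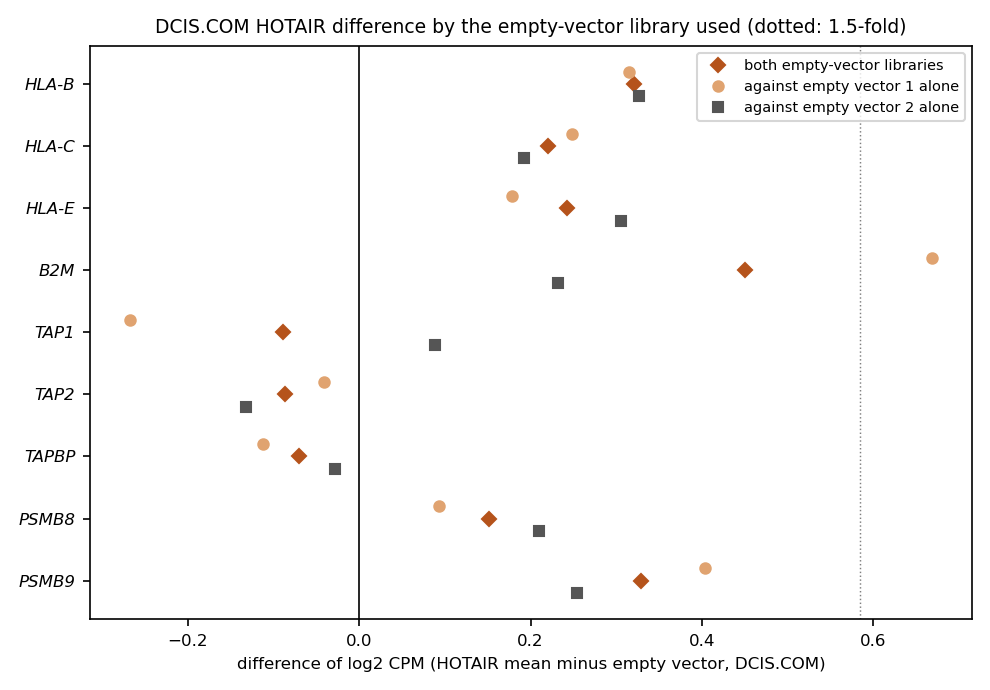
Log2 difference between the mean of the HOTAIR libraries and the empty vector in DCIS.COM for each class I gene, with both empty vector libraries (diamonds) and with each alone (circles, empty vector 1; squares, empty vector 2). B2M moves from 0.67 to 0.23 and TAP1 crosses 0 with the choice of control, while HLA-B lies between 0.31 and 0.33.

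The difference between the HOTAIR effects asks whether the vector acted alike on these genes in the 2 lines. No member passed an adjusted p of 0.05 (0.0436% of all genes did), and 8 of the 9 differences were above 0, that is, more positive in DCIS.COM, as were 51.2% over all genes. The values were 0.51 for B2M (95% interval 0.10 to 0.92, limma adjusted p = 0.430), 0.47 for HLA-B (0.27 to 0.68, 0.207), 0.32 for PSMB8 (0.09 to 0.55, 0.413), 0.31 for HLA-E (0.09 to 0.52, 0.398) and 0.26 for HLA-C (0.07 to 0.45, 0.417). These 5 had an unadjusted p under 0.05, as did 5.21% of all genes in the same direction and 5.34% in the other. PSMB9 (0.47, -0.01 to 0.95), TAP1 (0.29, -0.09 to 0.68), TAP2 (0.08, -0.14 to 0.29) and TAPBP (-0.09, -0.31 to 0.14) had intervals that held 0. HLA-B, HLA-E, B2M and PSMB8 were lower with HOTAIR in MCF10A and higher in DCIS.COM without overlap of the libraries, 4 of 9 against 6.08% of all genes.

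These calls again turned on the DCIS.COM controls. Without empty vector 1, HLA-B (0.48, limma adjusted p = 0.0323) and HLA-E (0.37, 0.0347) passed, with 89 genes in all. Without empty vector 2, HLA-B, HLA-C, HLA-E, B2M and PSMB8 passed, with limma adjusted p-values of 7.35e-05 (B2M) to 0.0244 (PSMB8), but so did 4414 genes. With an MCF10A or a DCIS.COM HOTAIR library left out, no member passed. The HLA-B difference ranged only from 0.47 to 0.48 with either DCIS.COM control left out.

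**Figure D5:**
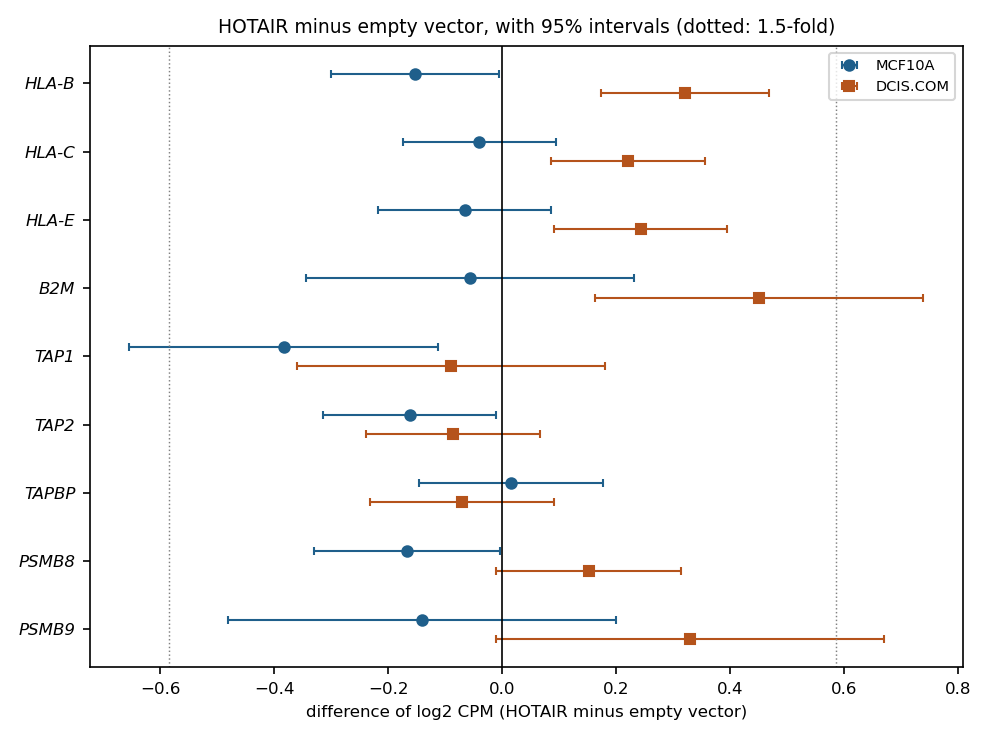
Log2 difference between HOTAIR and empty vector with its 95% interval from limma in MCF10A (circles) and DCIS.COM (squares) for the 9 class I genes; dotted lines mark 1.5-fold. HLA-B lies at -0.15 in MCF10A and 0.32 in DCIS.COM, the 3 loading genes lie below or near 0 in both lines, and no gene was called in either.

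The immunoproteasome genes can be set against the standard subunits they replace within each library (ratio of CPM per kilobase). PSMB8 stood at 0.273 of PSMB5 in both empty vector libraries of MCF10A and at 0.237 and 0.246 with HOTAIR. In DCIS.COM the ratio was 0.232 and 0.249 with the empty vector and 0.296 and 0.298 with HOTAIR. The HOTAIR libraries were thus the lowest in one line and the highest overall in the other. PSMB5 itself had a mean log2 CPM of 7.19 (SD 0.16) with the empty vector and 7.04 with HOTAIR in DCIS.COM. Part of the higher ratio there thus lay in PSMB5. PSMB9 stood at 0.0306 to 0.0422 of PSMB6 over the 8 libraries. PSMB10, the third inducible subunit and not a member, stood at 0.255 to 0.273 of PSMB7 in MCF10A, at 0.314 and 0.315 in DCIS.COM with the empty vector and at 0.389 and 0.367 with HOTAIR. PSMB10 itself was at a log2 CPM of 4.42 to 4.57 in every library.

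Other class I genes were taken from a list that held 12 heavy chain and class I-like genes, of which 11 were in the table. Between the lines with the empty vector, 6 of the 11 were called lower and 0 higher (23.8% and 22.5% of all genes), and with HOTAIR 5 lower and 1 higher (21.7% and 22%). HLA-F (2.88-fold and 2.11-fold), the pseudogenes HLA-H (3.83-fold and 2.73-fold) and HLA-J (2.07-fold and 3.07-fold) and the class I-like receptor PROCR (3.08-fold and 3.03-fold) were at least 2-fold lower in DCIS.COM with both vectors. HLA-H shares sequence with other class I genes, so its reads cannot be placed with certainty. HLA-J had only 8 to 13 reads in each DCIS.COM library and passed the minimum CPM for listing only through MCF10A. HLA-J could therefore only be called lower, and its direction adds nothing to either count.

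Of the 19 other proteasome subunits and activators, 4 were called higher in DCIS.COM and 1 lower with the empty vector, and 3 higher and 0 lower with HOTAIR. That was 26.3% and 15.8% of them, against 46.3% and 43.7% of all genes. PSME1, a subunit of the interferon-inducible proteasome activator, was 1.52-fold lower with the empty vector, and PSMB7, the standard counterpart of PSMB10, was 1.46-fold lower with HOTAIR without reaching the fold threshold. Of 12 other trimming, loading and chaperone genes, 1 was called higher and 2 lower with the empty vector, and 1 higher and 0 lower with HOTAIR (for all genes 46.3% and 43.7% in either direction). The aminopeptidase ERAP1, which trims peptides to class I length, was 1.62-fold lower with the empty vector. With HOTAIR its 1.48-fold difference (limma adjusted p = 0.000428) fell short of the fold.

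Of 22 regulators of class I genes, 1 was called higher and 8 lower in DCIS.COM with the empty vector, and 2 higher and 7 lower with HOTAIR. That was 40.9% of them with either vector, near the 46.3% and 43.7% of all genes. NLRC5, the transactivator of class I genes, was not called (log2 difference -0.34, 95% interval -0.67 to -0.01, limma adjusted p = 0.0666), whereas IRF1 was 1.69-fold lower with the empty vector and 1.51-fold lower with HOTAIR. STAT2 (2.38-fold and 2.20-fold) and IRF9 (6.59-fold and 4.37-fold), which transmit interferon signals to the nucleus, were lower in DCIS.COM with both vectors. Of 13 interferon receptor and signalling genes, 6 were called lower and 0 higher with the empty vector, and 4 lower and 1 higher with HOTAIR, 46.2% and 38.5% of them against 46.3% and 43.7% of all genes. IFNGR1, the ligand-binding chain of the interferon-gamma receptor, was 8.29-fold lower with the empty vector and 5.79-fold lower with HOTAIR, and its kinase JAK1 2.36-fold and 2.40-fold lower. The feedback inhibitors SOCS1 and SOCS3 were lower as well (8.97-fold and 3.29-fold with the empty vector). SOCS1 passed the minimum CPM for listing only through MCF10A, so it could only be called lower and adds nothing to these counts. No gene of these lists was called for HOTAIR in either line or for the difference between the lines.

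The members' neighbourhood was counted as well. Of the other 111 genes of the extended complex (chromosome 6, 29000000 to 34000000, GRCh37), 12 were called higher and 31 lower in DCIS.COM with the empty vector, with a median log2 difference of -0.14, and 12 higher and 28 lower with HOTAIR. That was 38.7% and 36.0% of them, against 46.3% and 43.7% of all genes. Without the other class I genes, 105 genes were left, with 12 higher and 26 lower with the empty vector. None was called in a comparison of the vectors.

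Over the 8 libraries the members fell apart by pattern. After each gene was centred on its mean, the root mean square difference of log2 CPM was 0.07 between HLA-C and HLA-E and 0.14 between HLA-C and B2M, but 0.79 between HLA-B and HLA-C and 0.82 between HLA-B and HLA-E. Of the 11809 genes compared, the nearest were NNT to HLA-C (0.03), TGIF1 to HLA-E (0.03), SCP2 to B2M (0.04), DMC1 to TAP1 (0.06), MTMR2 to TAP2 (0.04), MINDY1 to PSMB8 (0.04), HACE1 to PSMB9 (0.07) and ARHGEF37 to HLA-B (0.07). The other near genes were CCNDBP1 and HTATIP2 for HLA-C, CEP128 and NNT for HLA-E, RBM3 and RAD17 for B2M, and INAFM2 and SPINT2 for HLA-B. They were ACTR5 and OVOL2 for TAP1, GNL3 and XPOT for TAP2, ZNF710 and RETREG3 for TAPBP, ELAPOR2 and TSPAN17 for PSMB8, and ANKMY2 and TM2D3 for PSMB9. No member was among the 3 nearest genes of another member, and all points share the same 8 libraries.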

How the data were processed

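RNA-seq libraries (ScriptSeq v2, 76-base paired ends, HiSeq2000) of 4 groups with 2 libraries each were analysed. Per the paper's methods and the submitters' processing notes, the authors aligned reads to hg19 with Rsubread, counted genes of the UCSC annotation (featureCounts) and used edgeR for normalization. Deposited values were log2 CPM for 13771 genes, each above a CPM of 0.5 in at least 2 libraries. Of these, 343 had no symbol. Strand, multi-mapping and alternative haplotype settings are not given in the sources used here.

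Whole reads were recovered from the steps of the log2 CPM for 100% of the values (within 0.05 of a whole read). Recovered totals were 19306864 to 34884841 reads per library, so that counting error is largest in the MCF10A HOTAIR libraries and for PSMB9. Groups were compared on the deposited log2 CPM with limma 3.58.1 in R 4.3.3 (4 group means, all 8 libraries, mean-variance trend), and p-values were Benjamini-Hochberg adjusted over all genes. Calls needed an adjusted p under 0.05 and a fold of at least 1.5, the difference of the HOTAIR effects an adjusted p only. An exact permutation test of 2 libraries against 2 cannot go below a two-sided p of 0.333 and was not used. The script was tested on simulated data with 200 changed genes.

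The members and gene lists were chosen with earlier results of these data known, and the ISRE motif after the windows had been seen. Named genes are the members, fixed pathway genes (PSMB5, PSMB6, PSMB7, PSMB10, ERAP1, NLRC5, IRF1), class I, proteasome, loading, regulator and signalling genes called with at least 2-fold in both comparisons of the lines, and the 3 genes nearest in pattern to each member among those with a mean log2 CPM of at least 1. Some genes that this rule names are not reported here. PSME1 and the genes of the closing section were named after their values were seen. Positions came from GENCODE 44 on GRCh37 (13267 genes matched, 96.3%), promoters from RefSeq on GRCh38.p14, read with Python 3.11.15, pandas 2.3.3 and Biopython 1.88, without converting coordinates. Alternatives were other normalizations, pseudocounts, filters, variance models and fold thresholds, the replicate number as a block, limma-voom and thinning of recovered reads, length and GC corrections, and leaving out each library.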

Additional observations from a re-analysis of the deposited data

How the results depend on the processing

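For the members called in the 5 comparisons, the counts of 0, 0, 5, 5 and 0 were kept under both normalizations, both pseudocounts, the filter on a mean CPM of at least 2, the fit without the trend, limma-voom, thinning, the length and GC corrections and, where run, separate fits. A log2 fold threshold of 1.5 left 0 members called between the lines with the empty vector and 0 with HOTAIR, and no fold threshold gave 8 with the empty vector and 7 with HOTAIR. The members' median log2 difference between the lines with the empty vector was -0.79 after median centring and -0.79 after quantile normalization, and with HOTAIR -0.45 after quantile normalization and -0.48 after GC correction. GC correction also gave medians of 0.29 for HOTAIR in DCIS.COM and 0.40 for the difference of the HOTAIR effects, and took TAPBP to -0.011 for HOTAIR in MCF10A, 0.0046 in DCIS.COM and 0.016 for the difference. With GC correction, HLA-B (limma adjusted p = 0.0393) and HLA-E (0.0291) passed the adjusted threshold for HOTAIR in DCIS.COM, under 1.5-fold. The cause was not tested.

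With each library left out in turn, members called stayed at 0 for HOTAIR in MCF10A and ranged from 0 to 1 in DCIS.COM, stayed at 5 in both comparisons of the lines, and ranged from 0 to 5 for the difference. The medians ranged from -0.14 to -0.071, 0.18 to 0.22, -0.87 to -0.79, -0.53 to -0.51 and 0.26 to 0.37. In MCF10A, TAPBP ranged from -0.046 to 0.077 (below 0 also without empty vector 1, -0.017) and PSMB9 from -0.29 to 0.014, and in DCIS.COM TAP1 ranged from -0.27 to 0.089. Calls over all genes ranged from 1 to 51 for HOTAIR in MCF10A (51 without either DCIS.COM empty vector library), 1 to 1403 in DCIS.COM and 0 to 4414 for the difference (60 and 89 without DCIS.COM empty vector 1, and 1403 and 4414 without empty vector 2). These fits leave a group with a lone library that is assumed to vary like the other groups.

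Replicate numbers showed no shared effect: the replicate differences of the 4 groups correlated at -0.02 to 0.07 over genes. This cannot show whether libraries of the same number were prepared together, which the sources used here do not give. With the replicate block the members called were 0, 0, 5, 5 and 0, and the calls over all genes were 2 in MCF10A, 20 in DCIS.COM, 6378 and 6031 between the lines and 0 for the difference, against 3, 12, 6370, 6018 and 6. With all libraries kept, counts over all genes that moved by more than 1.5 times were 14 (MCF10A), 47 (DCIS.COM) and 27 (difference) with GC correction, 1 and 0 with separate fits in MCF10A and DCIS.COM, 6 in DCIS.COM and 0 for the difference without the trend, 6 and 10 for MCF10A and the difference with a pseudocount of 1, 5 in MCF10A with limma-voom and 5 with thinning, and 2418 and 2357 between the lines and 1 in each other comparison with the log2 fold threshold of 1.5. limma-voom used the library sizes implied by the deposited values in place of TMM on the recovered reads.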

Other observations

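The genes in the table from the class II pathway, which presents peptides from outside the cell, went the other way from most class I genes. Of 12 class II genes checked, 4 were in the table (HLA-DQB1, HLA-DMA, HLA-DOB and CD74). Among these, HLA-DQB1 alone encodes a chain of a presenting molecule. In all, 3 were called higher in DCIS.COM than in MCF10A with the empty vector and 4 with HOTAIR, with none lower (22.5% and 22% of all genes were called higher). CD74, the invariant chain, had a log2 CPM of -0.77, -0.84, -1.21 and -0.37 in MCF10A and of 4.59, 4.54, 4.87 and 4.92 in DCIS.COM (41.3-fold and 51.5-fold higher, limma adjusted p = 4.45e-07 and 3.38e-07). HLA-DQB1 was at 0 reads in the 4 MCF10A libraries and had a log2 CPM of 0.38, 0.11, 1.20 and 1.01 in DCIS.COM. It thus passed the minimum CPM of 0.5 in at least 2 libraries only through DCIS.COM. HLA-DQB1 could therefore only be called higher, and its direction adds nothing to the count. HLA-DMA, which helps to load class II molecules, was 2.32-fold and 2.80-fold higher. CIITA, the transactivator of class II genes, was lower in DCIS.COM with both vectors. It had a log2 CPM of 0.47, 0.66, 0.50 and 0.87 in MCF10A and of -2.29, -1.90 and -2.39 in 3 libraries of DCIS.COM. Empty vector 2 of DCIS.COM had 0 reads, and CIITA passed the minimum CPM only through MCF10A. CIITA could therefore only be called lower, and its direction adds nothing to the count of regulators.

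Ligands of NKG2D, an activating receptor of natural killer cells, split between the lines. All 8 were in the table, and with the empty vector 5 were called higher and 3 lower in DCIS.COM (22.5% and 23.8% of all genes), and with HOTAIR 2 higher and 3 lower (22% and 21.7%). MICA was 2.01-fold higher with the empty vector, whereas MICB was 4.61-fold, RAET1E 3.28-fold and RAET1G 5.06-fold lower. None of the 8 was called for HOTAIR in either line or for the difference of the HOTAIR effects. All 8 differences of the effects were below 0 (median -0.46), as were 6724 of all 13771 genes. Of the 8, 1 had an unadjusted p under 0.05, as did 5.34% of all genes in that direction. Some of these genes were low and varied between libraries. RAET1L had a mean log2 CPM of -1.14 (SD 0.40) with the empty vector and -0.30 (SD 0.84) with HOTAIR in MCF10A. It would not have passed the minimum CPM on its MCF10A libraries alone, so its higher call with the empty vector adds nothing to the count either. RAET1G passed the minimum CPM only through MCF10A, so its lower calls add nothing as well.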
